A study of Mus musculus with 4 samples.

Results

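Chromatin regions that are open inside genes, away from either end of a gene, were examined in mouse fetal liver. They were taken from 4 lists of ATAC-seq peaks. Peaks of the 4 lists on chromosomes 1 to 19 and X were merged wherever they shared 1 bp, and a region was kept if all 4 libraries had a peak in it. A region was placed by its summit, the point of highest signal in its highest-ranking peak. It was called intragenic when that summit lay inside a RefSeq protein-coding gene of the mouse assembly GRCm38.p6 and over 1 kb from every gene boundary. Of 55274 merged regions, 27465 were shared by all 4 libraries, and 9862 of these (35.9%) were intragenic. Another 11363 shared regions (41.4%) had their summit within 1 kb of a gene boundary and are called boundary regions, and 6240 (22.7%) lay outside genes and are called intergenic. Presence in all 4 lists, summit position and the gene table chose the regions, so none of these 3 is a finding.

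ATAC-seq uses a transposase that cuts and tags DNA where it is not covered by nucleosomes, so a peak marks open chromatin. Open chromatin inside genes includes enhancers in introns, to which transcription factors bind and from which they act on a promoter at a distance, and second promoters from which shorter transcripts start. In red cell precursors, well-studied enhancers of the alpha-globin genes, Bcl11a and Alas2 lie in introns. At the age studied, embryonic day 14.5, the fetal liver is mainly a red cell forming organ and also holds other blood cells and hepatoblasts.

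The 4 libraries came from fetal liver cells: 2 were wild type (WT) and 2 came from mice with a knockout (KO) of Hemgn, the gene of the nuclear protein hemogen, made in cells that form blood. The labels give no strain, sex or kind of KO allele, and they do not tie a replicate to an embryo, so the spread between replicates may be technical. In bulk tissue, a lower signal in each cell and fewer cells with the signal cannot be told apart. Read depth is unknown from peak lists. The lists used here held 47845 peaks in WT replicate 1, 34167 in WT replicate 2, 35415 in Hemgn KO replicate 1 and 43005 in Hemgn KO replicate 2, and the highest q of any peak was 0.0489. WT replicate 1 and KO replicate 2 therefore had the longer lists, and list length differed more within genotypes than between them. KO replicate 1 stood apart in the intragenic regions: the 3 pairs of libraries with it had the greatest distances between summits, as given below.

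The clearest group within the intragenic regions lay at internal starts, the annotated starts of shorter transcripts of the same or another coding gene. Of the regions, 1536 (15.6%) had a summit within 1 kb of such a start, although they lay over 1 kb from the gene's ends. The windows of 6 starts are shown to let the sequences of these sites be compared. Each is the 250 bases before an internal start, on the strand of the gene, from RefSeq GRCm38.p6, with CpG dinucleotides in capitals. Epb41 (protein 4.1, which joins spectrin to the red cell membrane) has its window at chr4:132049079-132049328 on the minus strand, with 28 CpG and the summit 6 bp from the start. Ireb2 (an RNA-binding regulator of iron uptake) has its window at chr9:54863505-54863754 on the plus strand, with 24 CpG and the summit 22 bp away. Gata2 (a transcription factor of blood stem and progenitor cells) has its window at chr6:88198414-88198663 on the plus strand, with 24 CpG and the summit 28 bp away. Steap3 (the iron reductase of the transferrin cycle) has its window at chr1:120265287-120265536 on the minus strand, with 11 CpG and the summit 28 bp away. Sgms1 (a sphingomyelin synthase) has its window at chr19:32211014-32211263 on the minus strand, with 8 CpG and the summit 31 bp away. Uros (a heme synthesis enzyme known to have an erythroid promoter inside the gene) has its window at chr7:133702501-133702750 on the minus strand, with 5 CpG and the summit 29 bp away.
Epb41: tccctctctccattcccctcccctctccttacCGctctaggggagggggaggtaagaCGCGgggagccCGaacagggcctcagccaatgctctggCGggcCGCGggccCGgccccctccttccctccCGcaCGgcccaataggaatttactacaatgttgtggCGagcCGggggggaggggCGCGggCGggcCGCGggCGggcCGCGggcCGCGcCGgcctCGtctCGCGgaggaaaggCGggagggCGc
Ireb2: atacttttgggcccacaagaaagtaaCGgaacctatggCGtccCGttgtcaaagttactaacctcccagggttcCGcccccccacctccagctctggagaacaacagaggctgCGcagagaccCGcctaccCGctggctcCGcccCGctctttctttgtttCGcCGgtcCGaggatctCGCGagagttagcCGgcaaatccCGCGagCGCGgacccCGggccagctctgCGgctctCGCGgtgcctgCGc
Gata2: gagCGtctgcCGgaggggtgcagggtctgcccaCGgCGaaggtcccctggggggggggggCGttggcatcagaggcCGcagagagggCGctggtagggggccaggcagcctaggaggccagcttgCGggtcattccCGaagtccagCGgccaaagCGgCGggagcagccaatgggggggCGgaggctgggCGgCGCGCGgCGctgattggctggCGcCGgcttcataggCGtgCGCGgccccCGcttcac
Steap3: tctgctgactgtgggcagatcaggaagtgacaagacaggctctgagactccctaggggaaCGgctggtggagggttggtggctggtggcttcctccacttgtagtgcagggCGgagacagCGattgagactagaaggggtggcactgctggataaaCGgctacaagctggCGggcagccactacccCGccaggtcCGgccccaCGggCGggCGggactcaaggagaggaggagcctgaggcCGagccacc
Sgms1: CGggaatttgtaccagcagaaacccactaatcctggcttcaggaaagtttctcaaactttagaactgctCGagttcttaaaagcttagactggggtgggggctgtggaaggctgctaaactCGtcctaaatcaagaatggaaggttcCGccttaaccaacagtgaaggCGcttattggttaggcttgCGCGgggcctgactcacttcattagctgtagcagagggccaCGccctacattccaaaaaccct
Uros: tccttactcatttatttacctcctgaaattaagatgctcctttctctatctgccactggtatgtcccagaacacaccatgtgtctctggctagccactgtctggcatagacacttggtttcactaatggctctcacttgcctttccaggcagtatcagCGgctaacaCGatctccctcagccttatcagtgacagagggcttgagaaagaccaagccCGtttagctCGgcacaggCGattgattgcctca

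The first 3 windows are rich in CpG and the last 3 are poorer, a split of the windows shown and not of all internal starts. Another open internal start of Sgms1, not printed, had 19 CpG. All 6 had a summit next to the start in a region open in every library. Epb41, Gata2 and Steap3 also had a shared region within 1 kb of the gene's own 5′ end, while Ireb2, Sgms1 and Uros did not. Which start of a gene is mainly used was not tested. In the Epb41 window the region (1240 bp) had within-list percentiles of 86.1 and 80.0 in WT and 82.2 and 88.8 in KO. A within-list percentile is the place of the region's highest fold enrichment among all peaks of that library's list, from 0 for the weakest to 100 for the strongest, and fold enrichment is the authors' ratio of summit signal to background. In Ireb2 (1005 bp) WT had 96.3 and 95.1 and KO 96.7 and 96.9. In Uros (688 bp) the WT libraries had 59.6 and 40.4 and the KO libraries 26.1 and 45.9. The order from Ireb2 to Uros held in each of the 4 libraries. By within-list percentile the genotypes overlapped at Epb41 and Uros. At Ireb2 both KO values were above both WT values, by under 2 percentiles. With percentiles taken among the shared regions alone, both KO values were above both WT values at Epb41 and at Ireb2.

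Among all internal coding starts in the start table, 3881 in 2929 genes, 1282 (33.0%) had the summit of an intragenic shared region within 250 bp. At these 1282 starts the 300-base window (250 bases before the start and 50 after) had a median GC content of 62.7% and a median of 21 CpG. At the 2081 internal starts with no shared summit within 1 kb, the medians were 49.7% and 4 CpG. Open internal starts were thus close in base composition to starts at a gene boundary with a shared summit within 250 bp, whose medians were 62.7% and 23 CpG. Short motifs were counted on both strands of the same windows as a description of letters and not of binding. The ETS motif GGAAGT was in 25.6% of open internal starts, in 19.6% of those without a shared summit and in 25% of all coding starts. The CTCF core AGGGGGC was in 19.3%, 8.07% and 13.0% of these windows in the same order. The GATA motif AGATAA went the other way, with 6.40%, 13.3% and 9.68%. The KLF motif CACACCC differed little, with 8.11%, 8.60% and 8.09%. The AP-1 motif TGACTCA was in 4.13%, 6.15% and 4.69%, and the E-box CAGCTG in 16.6%, 20.4% and 15.7%. None of these 6 motifs contains another, but they differ in GC content, which also differs between the sets of windows, and its part in these shares was not tested. Of the printed windows, those of Epb41 and Gata2 held the CTCF core, that of Steap3 the ETS motif and that of Sgms1 the AP-1 motif. Those of Ireb2 and Uros held none of the 6 as spelled here. Only AGATAA was counted for GATA, and other forms were missed, such as the TGATAA on the opposite strand of the Uros window.

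Regions at an internal coding start were wider and ranked higher than the other intragenic regions. Rank is the lowest of a region's 4 within-list percentiles, so that a high rank requires a high place in every library. The median rank was 68.2 and the median width 1098 bp at the 1536 regions with an internal coding start, against 35.8 and 785 bp at 6176 regions with no annotated start within 1 kb. Another 236 regions lay at a non-coding start (median rank 43.3, 937 bp), and for 1914 the gene was not in the start table (36.9, 812 bp). Internal coding starts made up 55.5% of the 1099 regions with a rank over 75 and 6.11% of those with a rank under 25. These shares describe the same regions that were chosen by peaks, and no test was made over regions.

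**Figure D1:**
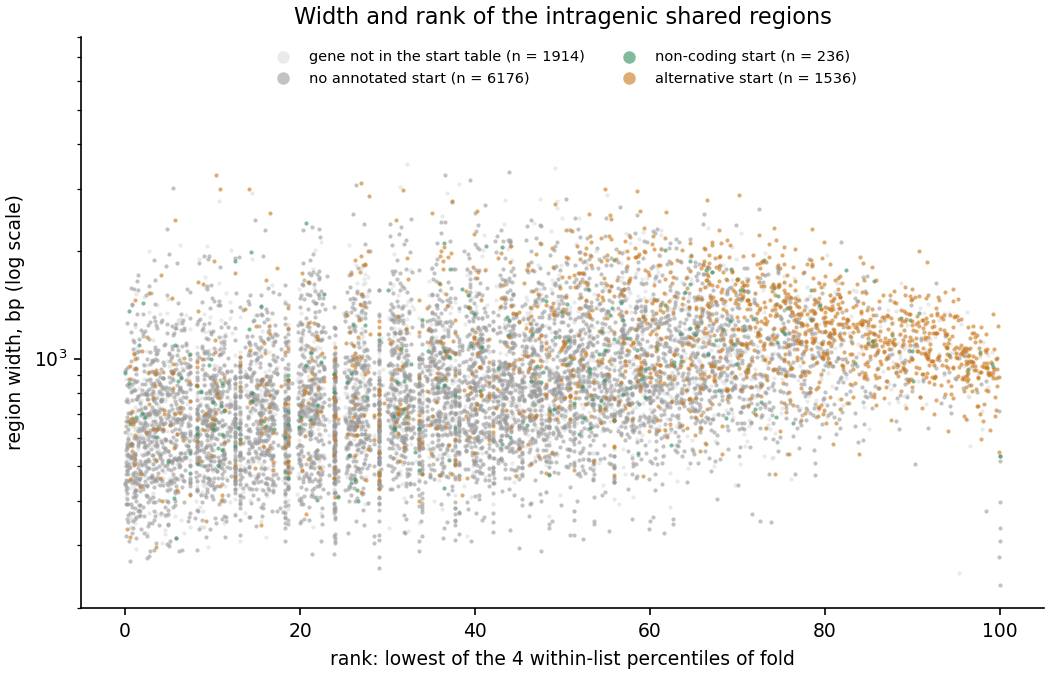
Each point is 1 of 9862 intragenic shared regions, with its rank (the lowest of its 4 within-list percentiles of fold) on the x axis and its width in bp on a log y axis, coloured by the nearest annotated start. Regions at an alternative, internal coding start (orange, n = 1536) crowd at the upper right, a few regions under 600 bp sit at the extreme right, and vertical lines of points are regions with tied ranks.

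Set against the other classes, intragenic regions were narrower and lower in rank than boundary regions and close to intergenic regions. Widths ran from 232 to 3516 bp with a median of 835 bp, and the middle 50% lay between 635 and 1121 bp. The median was 1113 bp in boundary regions and 777 bp in intergenic regions. The median rank was 39.8 in intragenic, 77.1 in boundary and 42.0 in intergenic regions. Of the intragenic regions, 30.7% had a rank under 25 and 11.1% a rank over 75.

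The same order was seen in every library. The median percentile of the intragenic regions was 61.4 in WT replicate 1, 46.7 in WT replicate 2, 47.4 in KO replicate 1 and 56.8 in KO replicate 2. The 2 libraries with the longer lists had the higher values. Its difference from that of boundary regions was -22.9, -31.8, -32.4 and -26.2 percentiles in the same order of libraries, with a mean of -28.3 ± 4.60 (SD, n = 4 libraries; exact two-sided sign-flip permutation p = 0.13, the smallest that 4 libraries allow). It was also below that of intergenic regions in all 4 libraries, with a mean difference of -2.18 ± 0.562 (SD, n = 4; exact permutation p = 0.13), but when regions were ranked by −log10 q in place of fold this difference was 0.652. The median peak width was 716, 612, 635 and 719 bp, with a mean difference of -344 ± 18.3 bp from boundary regions and of 52.8 ± 5.56 bp from intergenic regions (SD, n = 4; exact permutation p = 0.13 for each).

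**Figure D2:**
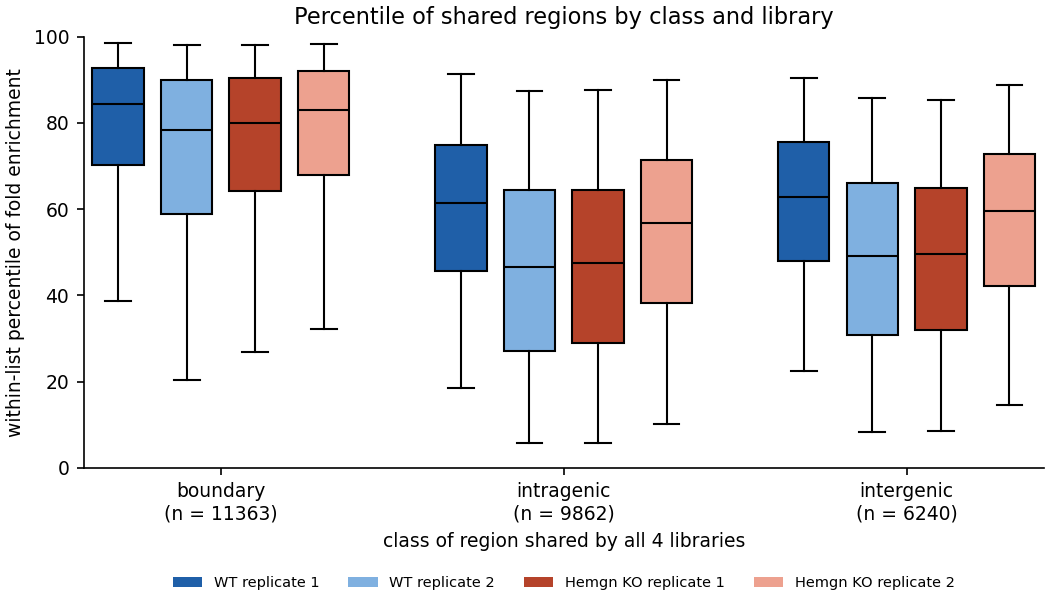
Within-list percentile of fold (y axis, 0 to 100) of the shared regions of each class in each library, with boxes from the 25th to the 75th percentile of regions, the median as a line and whiskers from the 5th to the 95th. Boundary regions sit highest in all 4 libraries, intragenic and intergenic regions lie close together, and WT replicate 1 (intragenic median 61.4) and KO replicate 2 (56.8) sit above the other libraries.

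The distance of 1 kb that separates the classes cut through a continuous range. The 276 intragenic regions with a summit 1001 to 1200 bp from a boundary had a median rank of 50.3 and a median width of 1046 bp. The 351 boundary regions inside a gene and 800 to 1000 bp from its boundary had 56.8 and 1146 bp. The nearest region inside the limit was in Cfap100 (1001 bp from a boundary, 824 bp wide, rank 69.0), and the nearest outside it were in Asb4 and Rhd (1000 bp, with ranks of 11.2 and 2.59). Most intragenic regions lay far from the limit: the median distance to the nearest gene boundary was 11.6 kb, 27.8% were within 5 kb, and 13.6% were over 50 kb away.

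Along the gene, the regions leaned to the 5′ side through the internal starts. Of 7882 regions in genes with a known strand, 24.3% lay in the fifth of the gene next to the 5′ end, and 21.0%, 19.6%, 18.1% and 17.0% in the next 4. Among the 6166 of these with no annotated start nearby, the shares were 18.0%, 20.6%, 20.7%, 20.2% and 20.5%, nearly even from end to end.

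The regions with the highest ranks were of an unlike kind: narrow, deep in long genes, and at almost the same summit in every library. The highest was a 336-bp region of Camk1d (a calcium-dependent protein kinase) at chr2:5379044-5379379, with folds of 46.5 and 44.3 in WT and 41.4 and 43.0 in KO and 4 summits within 4 bp. Regions of 308 bp in Gphn (gephyrin, a scaffold of inhibitory synapses), 232 bp in Chl1 (a neural cell adhesion molecule) and 277 bp in Cntnap5b (a neurexin family gene) also were among the 10 highest. Others were in Filip1l (534 bp), Jarid2 (516 bp, a subunit of a Polycomb complex), Zc3h7a (396 bp), Aars2 (548 bp, 66 bp from an internal coding start) and Rbms2 (715 bp). Of the 30 regions with a rank of at least 99, 9 were under 600 bp wide, against 26 of the 1099 regions with a rank over 75.

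The 5 widest regions did not have the highest ranks. They were in Kdm6b (3516 bp, rank 32.2), a histone H3K27 demethylase, Smim3 (3417 bp, 49.1), Sgms1 (3346 bp, 43.9), Ptch1 (3280 bp, 10.4), the hedgehog receptor, and Zbtb7a (3265 bp, 36.5), a repressor of fetal globin genes. Ranked by −log10 q in place of fold, the same 5 regions stood at 74.3, 77.1, 65.2, 67.5 and 83.5. All 5 thus stood higher by −log10 q than by fold, and both measures are given for the blood genes.

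Intragenic regions were spread over many genes and heaped up in a few. Of 19108 protein-coding genes of at least 2001 bp, the shortest that can hold such a region, 5427 (28.4%) had at least 1: 3367 had 1, 1045 had 2, 797 had 3 to 5, and 218 had 6 or more. Gene length moved with the count, with a median length of 16.1 kb in genes with no region, 29.5 kb with 1 and 151 kb with 6 or more, and a Spearman rho of 0.403 over the 5427 genes, which are not independent samples. The density also rose, from 1.52 regions per 100 kb in genes with 1 to 3.79 in genes with 6 or more, a direction that grouping by the count itself favours. The median distance to the next intragenic region was 16.0 kb, and 19.8% had another within 5 kb. A shared region at the start was found in 60.3% of all long-enough genes with a known start, in 59.99% of those with no intragenic region, in 57.7% of those with 1 and in 73.6% of those with 6 or more.

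The 10 genes with the most regions were of many kinds. Gse1, a gene for a coiled-coil protein of a histone deacetylase complex, had 29 in 353 kb on chromosome 8, from 36.7 to 342 kb from the 5′ end, with ranks from 0.687 to 83.0. Nav2, a neuron navigator, had 16 in 651 kb, and Sgms1 had 15 in 267 kb with ranks up to 92.4. Pde4d, a cyclic AMP phosphodiesterase, and Zmiz1, a transcription coactivator, had 14 each, in 1302 and 209 kb. Camta1 and Maml3 (a Notch coactivator) had 13 each. Arid1b, a subunit of the BAF chromatin remodelling complex, Sox6, a repressor of embryonic globin, and Ccnd3, the cyclin that sets the number of terminal red cell divisions, had 12 each. Ccnd3 was the most densely filled of the 10, with 12 regions in 94.6 kb.

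Most genes listed for the red cell programme held such regions, beside 28.4% of all long-enough genes. Of erythroid regulators, 23 of 26 (88.5%) had 1 or more and 82 regions in all, and Lyl1, Zfp36l2 and Rb1 had none. Of genes of the red cell membrane and its skeleton, 20 of 22 (90.9%) had 66 regions in all. These lists were chosen with earlier results known, so the shares describe them and were not tested. The median gene length was 23.9 kb for erythroid regulators and 33.4 kb for membrane genes, against 21.4 kb for all long-enough genes. The density was 5.2 and 5.38 regions per 100 kb against 0.960. That last value takes in very long genes, and it was 0.265 in genes over 300 kb. In all genes of 10 to 30 kb the density was 1.77, and in those of 30 to 100 kb it was 1.37.

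Among erythroid regulators, Sox6 had 12 regions, Zfpm1 (FOG1, the partner of GATA1) had 9 in 56.0 kb, and Bcl11a (the repressor of fetal globin) had 8. Gata1, the master regulator of the lineage, had 3, and its partners Tal1, Lmo2 and Ldb1 had 2 each. Klf1, which activates adult beta-globin, had 1 in a gene of 3.31 kb. The region of highest rank was in Sox6 at chr7:115941773-115942387, with percentiles of 91.2 and 81.3 in WT and 89.0 and 87.8 in KO. Of the 82, 11 lay at an internal coding start, and the gene table does not tell introns from exons for the others.

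Among membrane genes, Ank1 (ankyrin, the anchor of spectrin) had 11, Sptb (beta spectrin) and Epb41 had 8 each, Dmtn (dematin) and Piezo1 (a mechanically gated channel) had 5 each, and Slc4a1 (band 3) had 1. Their ranks by fold were low, with a median of 10.5 against 39.8 over all intragenic regions, while by −log10 q their median rank was 47.3 against 42.2. Erythroid regulators showed the same gap, with medians of 32.8 by fold and 60.5 by −log10 q, and so did heme and iron genes, with 21.6 and 58.0. In Slc2a1, the glucose transporter GLUT1, 3 regions had ranks of 1.38 to 3.43 by fold and a median rank of 30.8 by −log10 q. Which of the 2 measures is nearer to accessibility was not tested.

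Of 23 long-enough heme and iron genes, 11 had a region (47.8%), among them Alas2, Alad, Uros and Fech of heme synthesis, and 12 did not, among them Urod, Cpox and Ppox of the same pathway and Tfrc, the transferrin receptor. The highest was in Ireb2, shown above, followed by Steap3 (rank 80.1) and Fth1, ferritin heavy chain (78.8), each at an internal coding start. Of 24 BAF complex genes, 12 had a region. Arid1b had 12 and Dpf3 had 7, whereas Smarca4, which encodes BRG1, had none, nor did the core subunit genes Smarcb1, Smarcc1 and Smarce1. The highest of this list was at chr17:5189557-5190595 in Arid1b, with percentiles of 95.7 and 97.0 in WT and 96.4 and 95.6 in KO, which overlap.

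Of 20 genes of cytokine signalling, 12 had a region. Igf1r had 8, Stat5a had 2 and Stat5b had 3, while Epor, the erythropoietin receptor, and Jak2, its kinase, had none over 1 kb inside the gene. Of 16 organelle clearance genes, 10 had a region, such as Ube2o (4), Xpo7 (3) and Bnip3l (2), which act in the loss of ribosomes, nucleus and mitochondria. Of 23 cell cycle genes, 5 had a region (21.7%). All 22 regions of that list were in Ccnd3 (12), Cdk6 (6), Ccnd2 (2), Cdkn1a (1) and E2f4 (1), and the replication and mitosis genes such as Mcm2, Pcna, Top2a and Plk1 had none. The median length of cell cycle genes was 9.74 kb. Of 15 stem and progenitor genes, which are long (median 113 kb), 10 had a region, with 9 in Prdm16.

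Markers of other cell types held from 1 to 10 regions a list. A region was found in 1 of 9 long-enough macrophage genes (Csf1r), 1 of 7 granulocyte and mast cell genes (Prtn3), 3 of 10 lymphocyte genes (Blnk, Pax5 and Ebf1), 3 of 11 hepatoblast and hepatocyte genes (Alb and Hnf4a among them) and 4 of 10 endothelial and stellate genes. Megakaryocyte genes had 6 of 9, and this lineage shares a precursor with red cells. In Itga2b, the platelet integrin, the region at chr11:102455596-102456460 had percentiles of 90.3 and 87.0 in WT and 92.5 and 91.8 in KO. In Hnf4a, a hepatocyte transcription factor with 4 regions, the highest had percentiles of 52.0 and 54.3 in WT and 59.7 and 60.9 in KO. The granulocyte genes are short (median 3.51 kb), and density gave another order than the share of genes. It was 1.39 regions per 100 kb in granulocyte and mast cell genes, from 1 region, and 1.94 in hepatoblast and hepatocyte genes. In cell cycle genes it was 4.06 and in macrophage genes 0.211. The 0.960 of all genes takes in very long genes. In all long-enough genes under 10 kb the density was 1.78, and in those of 10 to 30 kb it was 1.77. Beside genes of like length, cell cycle genes (median 9.74 kb) were thus higher and granulocyte and mast cell genes lower. Hepatoblast and hepatocyte genes (median 15.7 kb) were close. The counts did not depend on genotype, since every region has a peak in all 4 libraries, and a peak does not measure a gene's RNA.

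**Figure D3:**
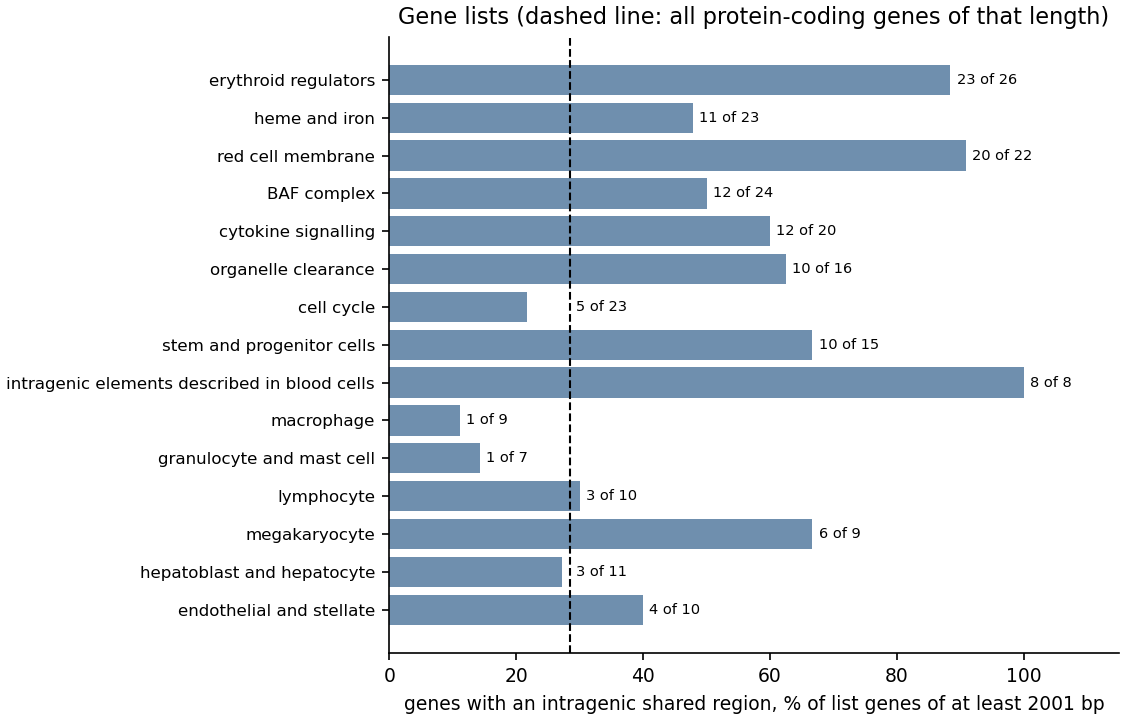
Bars give the percent of genes in each list, among those of at least 2001 bp, that held at least 1 intragenic shared region, with the counts beside each bar and a dashed line at 28.4%, the percent of all such protein-coding genes. Erythroid regulators (23 of 26), red cell membrane genes (20 of 22) and the 8 genes picked for known intragenic elements lie far to the right of the line, while macrophage, granulocyte, cell cycle and hepatocyte genes lie to its left.

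A list of 8 genes was made because elements inside them have been described in blood cells, and all 8 had 1 or more regions, 27 in all. Their median length was 89.4 kb, and whether a region matches a described element was not tested. Nprl3, a gene of amino acid sensing whose introns carry alpha-globin enhancers, had 5 in 35.7 kb. The 4 that lay 11.4, 16.6, 22 and 29.1 kb from its 5′ end were 817 to 1183 bp wide. At 11.4 kb (chr11:32255905-32256987) WT had percentiles of 72.5 and 56.5, and KO 47.5 and 65.8. At 16.6 kb (chr11:32250556-32251612) WT had 64.3 and 48.9, and KO 35.3 and 57.1. At 22 kb WT had 54.4 and 31.3, and KO 35.1 and 45.7. At 29.1 kb WT had 67.9 and 48.8, and KO 49.1 and 58.8. In all 4, WT replicate 1 was the highest and the genotypes overlapped in within-list percentiles. With percentiles taken among the shared regions alone, both KO values were below both WT values at 16.6 and 29.1 kb. By −log10 q these 4 ranked from 67.1 to 71.0, close together. The region 2.45 kb from the 5′ end was weak by fold in every library (24.8 and 3.53 in WT, 0.296 and 1.45 in KO), and there both KO values were below both WT values.

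Bcl11a, whose intronic enhancer is active in red cell precursors, had 8 regions in 97.0 kb. Those 53.2, 59.7 and 71.3 kb from the 5′ end were 1237, 1024 and 1298 bp wide. At 59.7 kb (chr11:24135952-24136975) the percentiles were 56.8 and 40.9 in WT, 14.0 in KO replicate 1 and 48.8 in KO replicate 2. Without KO replicate 1, the library that stands apart, the KO value lay within the WT range. Among the shared regions alone, both KO values were below both WT values at 53.2, 59.7 and 71.3 kb. The 3 regions between 2.53 and 5.36 kb from the start had fold percentiles of 0.473 to 12.5 in all libraries, but ranks by −log10 q of 38.6 to 57.7.

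Runx1, a master regulator of blood stem cells with 2 known promoters, had 7 regions. The region 24.3 kb from the distal start (chr16:92800928-92802400), in the part of the gene where an enhancer of blood stem cells is known, had the highest rank in the 8 genes, with percentiles of 84.9 and 77.9 in WT and 79.6 and 86.0 in KO. The region at the proximal promoter was 2291 bp wide, lay 170 bp from an internal coding start and had percentiles of 65.3 and 50.4 in WT and 56.9 and 57.3 in KO. The region 3.80 kb from the start had 43.4 and 20.5 in WT and 5.78 and 18.1 in KO, so that both KO values were below both WT values. Alas2, the first enzyme of heme synthesis in red cells, had a region at 2.40 kb (65.0 and 46.2 in WT, 52.5 and 61.8 in KO) and a higher one at 17.5 kb (84.1 and 67.2 in WT, 78.7 and 81.4 in KO). Kit, the stem cell factor receptor, had regions at 33.2 and 49.4 kb. The latter (chr5:75624021-75624575) was 53.7 and 48.1 in WT and 65.4 and 70.1 in KO, without overlap. Gata2, Erg and Fli1, transcription factors of blood stem cells, had 1 region each, and that of Gata2 lay at the internal start shown above.

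**Figure D4:**
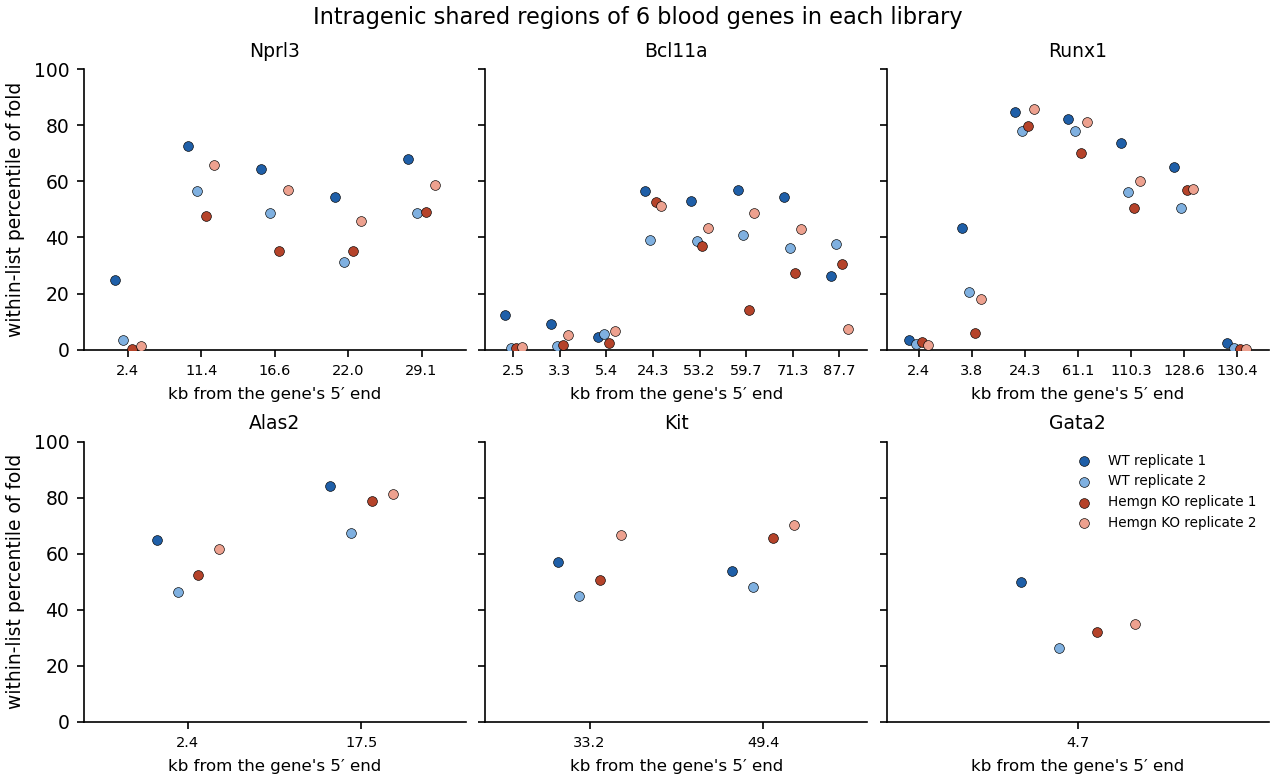
Within-list percentile of fold (y axis) of every intragenic shared region of 6 of the 8 genes, in each of the 4 libraries (points, 2 WT in blue and 2 KO in red), ordered by distance in kb from the gene's 5′ end (x axis, not to scale). In Runx1 the region at 24.3 kb has the highest rank, in Nprl3 and Bcl11a the regions nearest the 5′ end lie lowest, and the genotypes overlap at most regions by within-list percentile.

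Summits were compared between libraries. The distance between the summits of 2 libraries in an intragenic region had a median of 34 to 50 bp over the 6 pairs of libraries. It was 39 bp for the WT pair and 48 bp for the KO pair, and 49.5, 34, 50 and 40 bp for the 4 pairs across genotypes. All 3 pairs with KO replicate 1 had 48 bp or more, and the other 3 had 40 bp or less. Within genotypes the mean was 43.5 bp and between genotypes 43.4 bp (exact permutation p = 1, smallest possible 0.33), and the difference was 1.5 bp without KO replicate 1. Between 7.41% and 12.1% of regions had summits over 200 bp apart, depending on the pair. The span of all 4 summits had a median of 103 bp over the regions, and was 100 bp or less in 49.1% of them. It narrowed from 152 bp at ranks under 25 to 108 bp at 25 to 50, 79 bp at 50 to 75 and 53 bp over 75. At internal coding starts it was 82 bp. Percentiles of the same regions in 2 libraries had Pearson's r of 0.837 to 0.899 over the 9862 regions, a description in which regions share the library's depth.

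The targeted gene is given first in the comparison of the genotypes. Hemgn had 1 intragenic shared region, at chr4:46395660-46396905 (1246 bp), 8.26 kb from its 5′ end. WT had percentiles of 65.6 and 49.3 there, and KO 36.2 and 53.0, which overlap, and without KO replicate 1 the remaining KO value lay within the WT range. With percentiles taken among the shared regions alone, both KO values were below both WT values. A peak in this gene does not measure its product, so it checks nothing about the labels.

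Over the whole set no shift between the genotypes was detectable with 2 libraries each. The library median percentile had a mean of 54.1 ± 10.4 over the WT libraries and of 52.1 ± 6.62 over the KO libraries (SD, n = 2 for both), a difference of -1.94 (exact two-sided permutation p = 1, smallest possible 0.33). The median peak width had a mean of 664 ± 73.5 bp over the WT libraries and of 677 ± 59.4 bp over the KO libraries (SD, n = 2 for both), a difference of 13.0 bp (exact permutation p = 0.667). Both differences changed sign with the library left out. Without WT replicate 1 the percentile difference was 5.53 and without KO replicate 1 it was 2.51, and without WT replicate 2 the width difference was -43.8 bp and without KO replicate 2 it was -25.5 bp.

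Single regions in which the genotypes did not overlap were about as frequent as in all shared regions. Both KO percentiles were above both WT percentiles in 824 intragenic regions (8.36%), against 9.97% of all 27465 shared regions. Both were below in 1418 (14.4%), against 13.6%. The shares are near the background and are no result about the intragenic regions. They changed with the scale: with percentiles taken among the shared regions alone, 1650 were higher (background 19.2%) and 2224 lower (background 20.5%), and 628 and 1032 were called the same way on both scales. Without WT replicate 1, 4742 (47.5%) were higher and 1601 (16.1%) lower, beside 50.8% and 15.6% of all shared regions. Without WT replicate 2, 1364 (11.7%) were higher and 7470 (64.3%) lower, beside 13.1% and 61.4%. Without KO replicate 1 the counts were 2940 (25.8%) and 2314 (20.3%), beside 29.0% and 18.97%, and without KO replicate 2 they were 1357 (13.4%) and 4712 (46.4%), beside 15.1% and 43.2%.

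**Figure D5:**
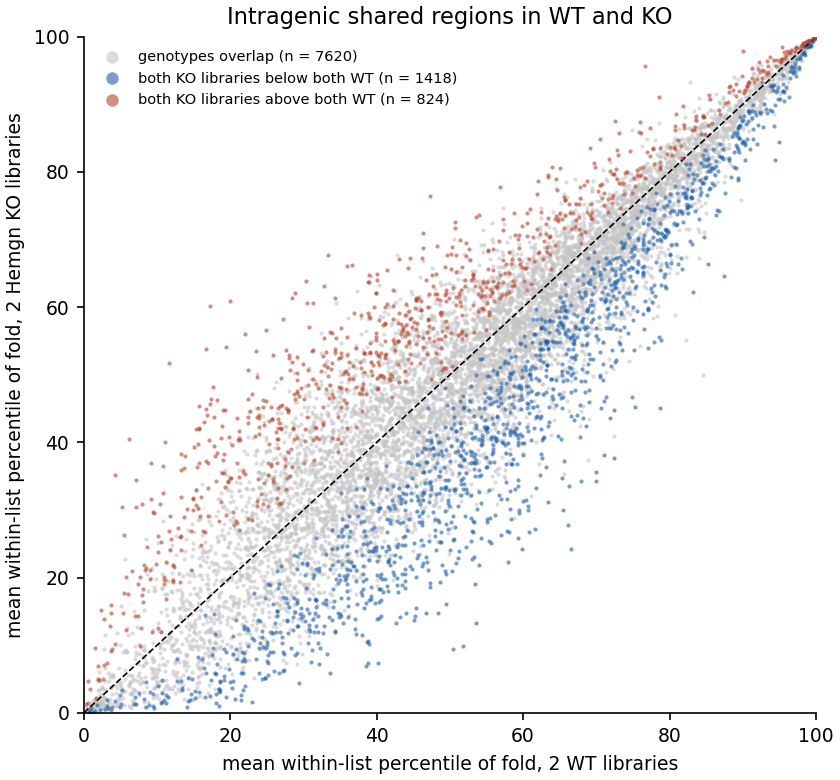
Each point is 1 intragenic shared region, with the mean within-list percentile of fold in the 2 WT libraries on the x axis and in the 2 Hemgn KO libraries on the y axis, and a dashed line where they are equal. Regions with both KO libraries above both WT (red, n = 824) and below (blue, n = 1418) lie on either side of the 7620 regions whose genotypes overlap (grey), and the cloud narrows toward the high percentiles.

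The regions with the greatest differences among those without overlap were chosen for that difference and are described with no test. Higher in KO, Efhd1, a calcium-binding protein of mitochondria, had percentiles of 26.3 and 8.23 in WT and 51.3 and 69.0 in KO (chr1:87281722-87282296). Maneal, at an internal coding start 15 bp from the summit, had 31.8 and 8.23 in WT and 64.4 and 57.4 in KO. Camk2b, a calmodulin-dependent kinase, had 10.1 and 13.1 in WT and 46.7 and 56.7 in KO, and Npm2 and Hoxc6 followed. In these 5 genes the WT values lay between 8.23 and 31.8. By −log10 q, Efhd1 and Maneal each ranked 2.41, Camk2b 4.53, Npm2 30.2 and Hoxc6 10.5, so most had a peak near the bottom of a list. Efhd1 and Maneal had the same fold of 3.34 in WT replicate 2.

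Lower in KO, Lzts1 had 75.9 and 57.3 in WT and 12.5 and 35.8 in KO (chr8:69157314-69158155). Tspan14, a tetraspanin, had 53.9 and 49.6 in WT and 16.1 and 3.73 in KO. Crtc1, a coactivator of CREB, had 54.2 and 53.0 in WT and 14.0 and 12.5 in KO, with the replicates of each genotype within 2 percentiles of each other. Fbxl13 and Snx1, a sorting nexin of endosomes, were the others, and in Snx1 the KO libraries were far apart (12.5 and 43.0). By −log10 q, Lzts1 and Snx1 each ranked 5.52, Tspan14 2.88, Fbxl13 1.99 and Crtc1 33.4, so most of these too had a peak near the bottom of a list. Lzts1 and Snx1 had the same fold of 3.44 in KO replicate 1. All 10 regions also had no overlap, in the same direction, when percentiles were taken among the shared regions.

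By list, the counts without overlap were small and changed with the ranking. Only the main counts are read beside the 9.97% higher and 13.6% lower of all shared regions, since these shares changed with the setting too. By −log10 q they were 7.09% and 8.46%, with lists of equal length 19.04% and 20.14%, and among shared regions 19.2% and 20.5%. Counts leaving out 1 library are read beside the shares of all shared regions given above for that library. Of 66 regions in red cell membrane genes, 15 were higher and 5 lower in KO, with a median difference of 0.523 percentiles against -1.66 over all intragenic regions and -0.583 over all shared regions. Ank1 went both ways, with 4 higher and 3 lower, and Sptb had 4 higher and 0 lower. Ranked by −log10 q, 3 regions of the list were higher and 5 lower, and with lists cut to equal length 5 and 9, so the excess of higher regions was not kept. Without KO replicate 2 it was 19 and 26, without WT replicate 2 it was 18 and 44, without KO replicate 1 it was 25 and 11, and without WT replicate 1 it was 39 and 7. Of 82 regions in erythroid regulators, 4 were higher and 15 lower (median difference -3.09), with 5 of the lower in Cbfa2t3 and 3 in Zfpm1. Ranked by −log10 q the counts were 2 and 3, and among shared regions 10 and 27. Without WT replicate 1, 39 were higher and 17 lower, and without WT replicate 2, 5 and 70. Without KO replicate 1 the counts were 13 and 22, and without KO replicate 2 they were 6 and 41. Of 27 in stem and progenitor genes, 2 (7.41%) were higher and 10 (37.0%) lower (median difference -8.29), with 6 of the lower in Prdm16. Ranked by −log10 q the counts were 1 and 4, and among shared regions 2 and 12. Without WT replicate 2 they were 4 and 25, without KO replicate 2, 5 and 20, and without WT replicate 1, 6 and 12.

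The counts of the other lists by within-list percentile were 5 or fewer in either direction. Those among shared regions are read beside 19.2% higher and 20.5% lower of all shared regions. Of 38 regions in BAF complex genes 3 were higher and 5 lower, and 6 and 5 with percentiles among shared regions. Of 24 in heme and iron genes 2 were higher and 2 lower, and 2 and 6 among shared regions. Of 22 in cell cycle genes 0 were higher and 4 lower, 2 of them in Ccnd3 and 2 in Cdk6, and 4 were higher and 7 lower among shared regions. Of 10 in megakaryocyte genes 2 were higher and 0 lower, and of 6 in hepatoblast and hepatocyte genes 2 and 0. Among shared regions the counts were 4 and 0 in megakaryocyte genes and 1 and 2 in hepatoblast and hepatocyte genes. The Itga2b region given above was higher in KO on both scales, whereas the Hnf4a region was higher by within-list percentile and overlapped among shared regions. In Ccnd3 the region of highest rank had 87.9 and 86.5 in WT and 81.3 and 83.1 in KO (chr17:47511007-47511993).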

How the data were processed

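ATAC-seq was made by the Omni-ATAC method, per the labels' protocols, from 2 WT and 2 Hemgn KO samples. The deposited files are 4 MACS2 narrowPeak lists, 1 per library and none pooled. The submitters' processing notes name MACS2 2.2.7.1, Picard 2.21.4, SAMtools 1.9 and Bowtie2 2.3.5. Settings and genome build: not given in the sources used here. Fold enrichment, as deposited, is a ratio of summit signal to background. The −log10 p and −log10 q of each peak were deposited by the authors too, as was a score that follows the −log10 q. Summits lay within 250 bp of a GRCm38.p6 start in 20.8% to 27.2% of peaks, against 0.951% to 1.28% after shifts of 5000, 20000 or 50000 bp, so that gene table was used; genes on scaffolds were left out, which left 21521. Coordinates of regions are those of the lists, counted from 1. The table has no exons.

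From these files, regions, within-list percentiles and classes were computed (Python 3.11.15, pandas 2.3.3, SciPy 1.17.1), and the steps were tested on simulated data. Libraries were compared by exact permutation tests over libraries, which cannot reach p under 0.33 for 2 against 2. Motifs were planned around all summits, but no genome sequence was at hand, so they were counted in RefSeq start windows. Depth is unknown from peak lists, which limits precision in a way that cannot be given as an interval.

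Genes were named by rule: those of the 10 highest-ranked and 5 widest regions, the 10 genes with the most regions, in each list the 2 genes with the most regions and the gene of the highest-ranked region, the 5 greatest differences in each direction among regions without overlap, the genes with known intragenic elements, and Hemgn. Other list genes are named by their counts, and a few genes that the rule names are not reported here. The regions, the lists and the rules were chosen with earlier results of these data known. Alternatives were other distances to boundaries, merging rules, list filters and ranks, and leaving out each library.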

Additional observations from a re-analysis of the deposited data

How the results depend on the processing

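The number of intragenic shared regions (7125 to 11612) and of genes with 1 (3660 to 6250) stayed within 1.5 times the main count under every alternative run, and the differences from boundary regions in percentile and width kept their sign. The share of shared regions that were intragenic was 25.9% over 5 kb from a boundary, 40.2% over 500 bp, 33.5% with boundaries of all genes, 33.3% at a −log10 q of at least 5 and 33.9% with lists of equal length, and 36.1% to 37.8% leaving out 1 library. The difference of -2.18 from intergenic regions turned to 0.652 by −log10 q, and was -0.643 over 500 bp from a boundary, -4.0 over 5 kb, -1.1 with lists of equal length, -1.47 with boundaries of all genes and -5.32 without regions at an alternative start (chosen after seeing the data). The difference of library medians between genotypes ran from -9.47 to 5.53 percentiles, that of width from -43.8 to 68.0 bp and that of summit distance from -11.5 to 6 bp leaving out 1 library. Summit distance also turned to -0.75 bp over 500 bp from a boundary and at a −log10 q of at least 5, and to -0.25 bp with boundaries of all genes. Regions higher in KO numbered 378 at a −log10 q of at least 5 (4.81%, beside 6.25% of all shared regions). With lists of equal length they numbered 1390 (16.4%, beside 19.04%). With percentiles among shared regions (chosen after seeing the data) they numbered 1650 (16.7%, beside 19.2%). Leaving out 1 library gave 1357 to 4742. The share over all shared regions rose and fell with these counts, so the changes are no result about the intragenic regions. Regions lower in KO numbered 814 by −log10 q (8.25%, beside 8.46%) and 2224 among shared regions (22.6%, beside 20.5%). Leaving out 1 library they numbered 1601 to 7470, with the shares given above. The cause of these changes was not tested.

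Replicate numbers are shared by the genotypes, but the deviations of same-numbered libraries correlated at -0.154, so the numbers were not taken as pairs. With the replicate block, 1167 regions were higher and 1799 lower in KO in both pairs, the percentile difference was -1.94 and the width difference 13.0 bp, and 2 pairs allow no p under 0.5. With crossed numbers, added after seeing the data, the counts were 1720 and 3707. For the block and the crossed numbers the shares over all shared regions were not computed, so these counts are no result about the intragenic regions. Of 450 counts of non-overlapping regions by gene list and setting, 146 moved by over 1.5 times, against 11 of 210 counts of genes and 12 of 210 counts of regions. Lists of 2 libraries per genotype and unknown read depth limit every comparison of the genotypes.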

Other observations

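Some genes were filled with open regions more densely than any of the 10 genes with the most regions. Among genes with at least 5 intragenic shared regions, and ordered after their values were seen, Gpr146, a receptor gene, had 5 in 18.7 kb (26.7 per 100 kb), Ehbp1l1 had 5 in 19.2 kb and Csk, the kinase that restrains Src kinases, had 5 in 27.0 kb. Srgn, the proteoglycan of blood cell granules, had 6 in 33.6 kb. Bcl2l1, which encodes the survival factor Bcl-xL of red cell precursors, had 11 in 75.1 kb, and Zfpm1 had 9 in 56.0 kb. The best-ranked region of Csk had a rank of 89.9, that of Bcl2l1 74.9 and that of Ehbp1l1 6.51, so that density and rank did not go together in these genes.

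Of 1005 microRNA hairpins in the RefSeq table, 31 overlapped an intragenic shared region, in 29 regions. Mir33, which lies in an intron of the sterol regulator Srebf2, was in a region of rank 3.57, and Mir101b in Rcl1 in a region of rank 4.38. Mir34b, in the gene Btg4, was in a region of rank 18.6. The region of highest rank with a hairpin was that of Mir5620 in Clcn4 (90.8), at an internal coding start. No microRNA level was measured.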
